A study of Homo sapiens with 6 samples.

Results

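The Argonaute crosslink sites annotated to miR-205 were examined in HK2, a cell line grown from human proximal tubule epithelium, labelled WT in all samples. A site was taken as a miR-205 site when the authors' seed annotation of the crosslink named hsa-miR-205-5p, whatever the kind of match and the part of the RNA, which gave 478 of 16230 sites in 386 named genes, 12 of the sites lying in no named gene. Another 181 sites carry miR-205 only as a secondary seed and were not counted. Read numbers had no part in the choice.

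The compared libraries are 2 Argonaute pull-downs from cells exposed to TGF-beta1 (20 ng/mL for 24 h) and 2 from control cells. All cells were starved of serum for 24 h, given 100 µM 4-thiouridine for 20 h and irradiated at 365 nm. In PAR-CLIP, ultraviolet light joins 4-thiouridine to the bound protein, and the crosslinked T is read as a changed base. A pair of IgG pull-downs in the series was not analysed here, and the values below have no background from them.

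Library depth was 5293207 and 3415699 reads with TGF-beta1, against 1714444 and 1926255 reads in control. HK2 is 1 cell line, and of 14 proximal tubule markers, among them LRP2, CUBN, AQP1 and HNF4A, 0 held an Argonaute site. The same was true of 19 markers of immune, endothelial, stromal, basal and other nephron cells, 0 of which held a site. A gene without a listed site may still be expressed. Of 25 TGF-beta pathway genes, 13 had enough reads to be tested and 5 were higher with TGF-beta1 at an adjusted p under 0.05 (limma), against 1.58% of the 1266 genes tested. Their median log2 difference was 0.71, against 0.02 over all tested genes. The list was chosen with earlier results of these data known, so these values are no independent check of a response. Since these are bulk libraries, fewer cells of a type and less RNA per cell cannot be told apart. Nothing in the labels says whether replicates are separate cultures. The p-values thus measure only how these libraries vary, and that variation may be technical.

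MicroRNAs guide Argonaute to RNA through their seed, bases 2 to 8, and loaded Argonaute lowers the translation and stability of the bound mRNA. Pairing of the seed is the main determinant, and an A opposite base 1 of the microRNA, held by Argonaute itself, strengthens binding. miR-205 is an epithelial microRNA. Together with the miR-200 family it is known to repress ZEB1 and ZEB2, which are transcription factors that drive loss of epithelial character, and TGF-beta1 is a classical inducer of that change.

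The mature microRNA (RefSeq, GRCh38.p14, chr1:209432166-209432187, plus strand) is shown with its seed in capitals, so that the target sites can be read against it.
miR-205-5p: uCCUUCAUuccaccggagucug
Target stretches from the deposited table are 29 bases on the RNA strand in hg38, and the crosslinked T is base 15 of each. Capitals mark the match to the seed, whose full form is ATGAAGG. The first 3 have all 7 seed bases paired, directly after the crosslinked T.
CALU, 3′ UTR, chr7:128769442-128769470, plus strand: ggttgggagtatgatATGAAGGatcaaga
RAP2B, 3′ UTR, chr3:153163734-153163762, plus strand: gtccgggagaaccatATGAAGGagcagga
RTN3, coding or 3′ UTR, chr11:63758257-63758285, plus strand: gtcgttacttgtactATGAAGGaaaatac
The next 3 pair bases 2 to 7 only, in the same place. The base opposite nucleotide 8, just before the capitals, is G in TXNRD1 and TCEAL9 and T in MTHFD2.
TXNRD1, 3′ UTR, chr12:104349484-104349512, plus strand: tgaacacaggtggatgTGAAGGattttca
TCEAL9, 3′ UTR, chrX:103358308-103358336, plus strand: atatggacataacttgTGAAGGatgaaag
MTHFD2, coding sequence, chr2:74211846-74211874, plus strand: ttggagatgtggatttTGAAGGtaaatgg
ZNF367 and ZNF567 pair bases 3 to 8, again directly after the crosslinked T, and ZNF367 is the site that fell with TGF-beta1.
ZNF367, 3′ UTR, chr9:96388104-96388132, minus strand: attctgtagaaatttATGAAGaatgttat
ZNF567, 3′ UTR, chr19:36720849-36720877, plus strand: tgaactctatcagctATGAAGctaaattt
The last 4 are highly crosslinked sites whose match lies elsewhere. In FOXK1, HSPA8 and GAS5 it ends well upstream of the crosslink, and in SCARNA4, the site that rose, the crosslinked T is a base of the match itself.
FOXK1, 3′ UTR, chr7:4767530-4767558, plus strand: ctATGAAGacaggattagtctgtagacgg
HSPA8, 3′ UTR, chr11:123057660-123057688, minus strand: tTGAAGGacctaaattcgtagcaaattct
GAS5, intron, chr1:173865969-173865997, minus strand: cATGAAGGtcttaattagctctaactgac
SCARNA4, noncoding RNA, chr1:155926044-155926072, minus strand: aaggctgagtctgATGAAGtaagactttg

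Coding sequence held more miR-205 sites than any other part of the RNA. Of the 478 sites, 225 (47.1%) were in coding sequence, 145 (30.3%) in 3′ UTRs, 56 in introns, 19 in noncoding RNAs, 12 between genes and 10 in sequence that is coding or 3′ UTR by transcript. Coding sequence held 23.7% of the 9771 sites matched to other microRNAs. For the sites of the other epithelial family, miR-200b/miR-429, it held 53 of 235 (22.6%), and for those of miR-21 50 of 242 (20.7%). These are descriptions of the list, since the authors' seed annotation placed each site in its set. By match type, 87 sites paired bases 2 to 8, 188 bases 2 to 7, 197 bases 3 to 8, and 6 had a bulge. The authors' score for miR-205 itself, its microRNA reads scaled to the library total, was 8403.

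The position of the match separated these sites into a large group with a shared geometry and a scattered remainder. In 132 of 472 sites with an unbroken match, the base opposite nucleotide 8 of miR-205 was the first base after the crosslinked T. This position is called in register here. No other distance held more than 34 sites, apart from 61 sites in which the crosslinked T is the T of ATGAAGG, which that T itself makes possible. In-register sites made up 65 of 144 unbroken 3′ UTR sites (45.1%), 54 of 225 coding sites (24.0%), 6 of 52 intronic sites (11.5%) and 0 of 19 in noncoding RNAs. In 3′ UTRs the share in register was 53.3% for miR-200b/miR-429, 55.9% for miR-21 and 38.7% for all other matched sites. How the authors picked the best seed for a site is not given in the sources used here and may have used position, so no test was made.

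**Figure D1:**
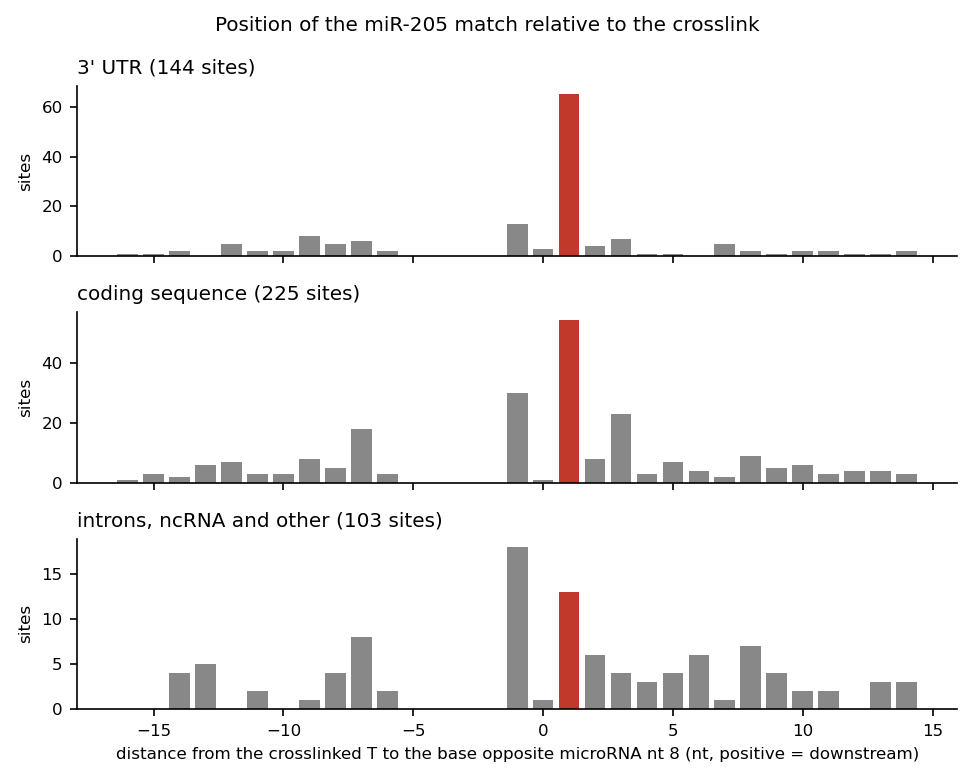
Number of miR-205 sites (vertical axis) by the distance in nucleotides from the crosslinked T to the base opposite nucleotide 8 of the microRNA (horizontal axis), in 3′ UTRs, coding sequence and all other sequence. The red bar at 1 nt is the in-register position, which holds 65 of the 3′ UTR sites and 54 of the coding sites, while the remaining sites spread over both sides of the crosslink.

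The bases next to the match also differed by position. The base opposite nucleotide 1 has no part in the match types, though whether the authors' seed choice used it is not given in the sources used here. An A stood opposite nucleotide 1 in 81 of 109 in-register sites that pair bases 2 to 7 or 2 to 8 (74.3%). At other positions it was 69 of 139 such sites (49.6%), counting only those whose base opposite nucleotide 1 lies in the 31-base window. CALU, RAP2B, RTN3, TXNRD1 and TCEAL9, printed above, all have this A. Sites that pair bases 2 to 7 only have, by that definition, no A opposite nucleotide 8. Among them a G faced nucleotide 8, a U, in 52 of 77 in-register sites (67.5%). At other positions it was 28 of 109, again counting only sites with that base in the window. A G can form a wobble pair with U, as in TXNRD1 and TCEAL9. Of those 52 sites, 15 also carried an adjacent or near miR-27 seed in the authors' annotation, and all 16 miR-205 sites with that annotation were in register. CCGG, the complement of bases 13 to 16, was searched on the RNA strand in the 15 bases before the crosslinked T, any overlap allowed. It was rare, in 4 of 132 in-register sites (3.03%), in 5 of 346 at other positions (1.45%) and in 1.17% of all 16230 sites. At other positions the searched bases need not lie upstream of the match, so the 1.45% does not measure upstream pairing. No match says only that these letters are not in the searched bases.

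Position also went with read number. In 3′ UTRs, in-register miR-205 sites had a median of 16 crosslinked reads over the 4 libraries, against 7 at other positions, and 47 of 65 had a read in every library, against 36 of 80. In coding sequence the medians were 12.5 and 6 reads. Sites of other microRNAs in 3′ UTRs had medians of 17 reads in register and 9 elsewhere, and 3′ UTR sites without any seed match had a median of 7 reads. Over all 478 sites the median was 7 reads, with a range of 2 to 226, and most single sites were too thin to be tested between the groups.

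The 20 most read sites, ranked by mean over the 4 libraries, held 26.7% of the 5954 crosslinked reads at miR-205 sites. Of these, 11 were in 3′ UTRs and 9 in register. The cut is not a gap, as rank 20 averaged 3.47 and rank 21 3.43 RPM. Values for single sites below are crosslinked reads in RPM, which are reads scaled to the library total, after TMM scaling. That scaling sets libraries to a common level over the sites with enough reads for the test. Its factors were applied to all sites. Gene sums had their own factors, so site and gene values are not on one scale.

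The highest was in the 3′ UTR of FOXK1, a forkhead transcription factor, with 20.6 and 26 RPM with TGF-beta1 and 12.7 and 15.5 RPM in control. After scaling, both TGF-beta1 libraries were above both control libraries, but the log2 difference of 0.68 ± 0.29 (SE) had an adjusted p of 0.173 (limma). Without TMM scaling the log2 difference was 0.05. The match of the FOXK1 site lies upstream of the crosslink and out of register. TXNRD1, the cytosolic thioredoxin reductase of redox control, had 17.6 and 10.6 RPM with TGF-beta1 and 8.84 and 20.0 RPM in control, so that the control pair enclosed the treated pair. HSPA8, the constitutive HSC70 chaperone, had 11.4 and 11.7 RPM with TGF-beta1 and 9.40 and 16.9 RPM in control, and the groups overlapped. CALU, a calcium-binding protein of the secretory pathway, had 9.24 and 5.71 RPM with TGF-beta1 and 14.4 and 7.57 RPM in control, again overlapping. It is the most read site with full seed pairing in register.

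At THBS1, TPM4 and MTHFD2, too, both TGF-beta1 libraries were above both control libraries after scaling, as at some sites described below. How many sites of the whole table separate in this way was not counted, so the separation is only described. THBS1, the matrix protein thrombospondin 1, which activates latent TGF-beta, had 8.62 and 6 RPM with TGF-beta1 and 5.53 and 4.82 RPM in control, with no overlap but an adjusted p of 0.664 (limma), and its log2 difference of 0.41 became −0.16 without TMM scaling. TPM4, an actin-binding tropomyosin, had 5.24 and 5.43 RPM with TGF-beta1 and 4.42 and 1.38 RPM in control, a log2 difference of 0.82 ± 0.54 (adjusted p = 0.431, limma). MTHFD2, a mitochondrial enzyme of one-carbon metabolism, was the most read coding site. It had 5.54 and 7.14 RPM with TGF-beta1 and 1.66 and 3.79 RPM in control, with a log2 difference of 1.03 ± 0.51 (adjusted p = 0.268, limma). Without TMM scaling the log2 difference was 0.33 for TPM4 and 0.49 for MTHFD2. None of the 3 passed the test.

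TCEAL9 had 6.16 and 7.71 RPM with TGF-beta1 and 4.42 and 3.10 RPM in control, again without overlap, and an adjusted p of 0.399 (limma). Its log2 difference of 0.74 became 0.20 without TMM scaling. RAP2B, a small GTPase of the Ras group, had 4.93 and 3.14 RPM with TGF-beta1 and 2.21 and 5.16 RPM in control, and the groups overlapped. ORC6, a subunit of the origin recognition complex, had 5.85 and 4.86 RPM with TGF-beta1 and 1.11 and 2.07 RPM in control, but with 19 and 17 against 2 and 6 reads it did not pass the filter on low counts and was not tested. The other sites described among the 20 were the zinc finger gene ZNF567, the endoplasmic reticulum proteins RTN3 and RNF103, the snoRNA host gene GAS5, the nuclear RNA MALAT1 with 3 sites, and SCARNA4 and ZNF367, described below.

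**Figure D2:**
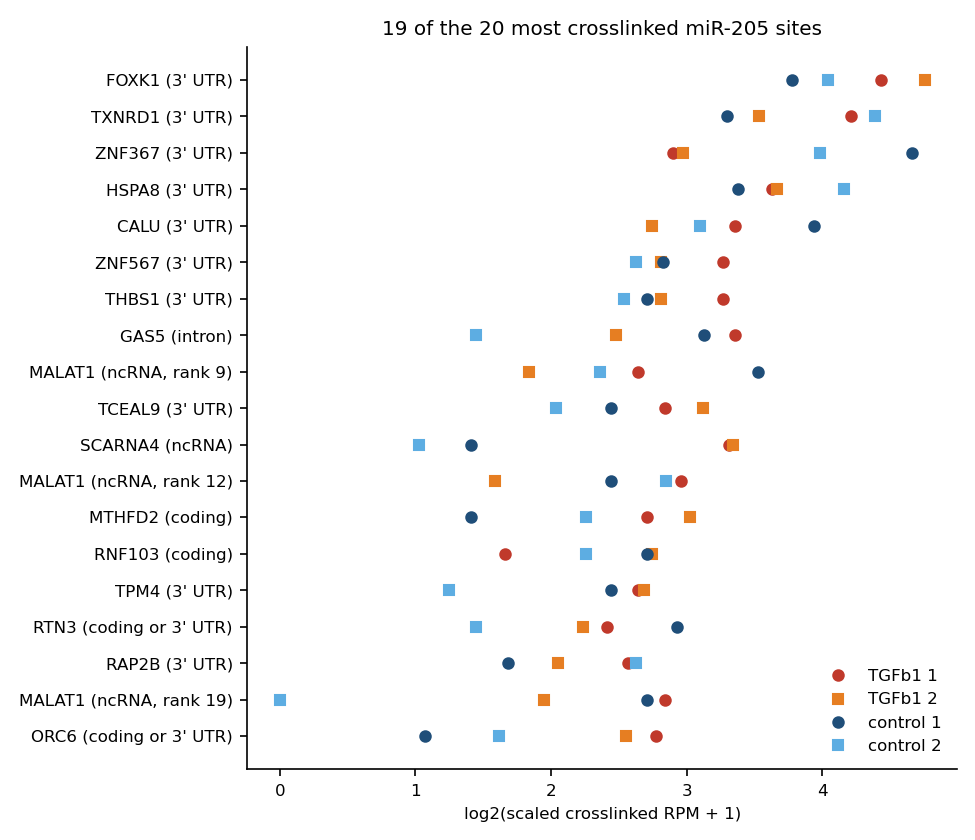
Crosslinked RPM after TMM scaling, as log2(value + 1) on the horizontal axis, at 19 of the 20 most read miR-205 sites, with a circle or square for each library. The TGF-beta1 symbols (red and orange) lie far to the right of the control symbols (blue) for SCARNA4 and to the left for ZNF367, and overlap or differ by less at most of the other sites.

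The site fit asked whether single miR-205 sites differed between TGF-beta1 and control cells. Only 24 of the 478 passed the filter on low counts: 13 in 3′ UTRs, 5 in coding sequence, 4 in noncoding RNA and 1 in an intron, with 1 in mixed sequence, and 14 in register. The filter works on RPM before TMM scaling, so fewer reads suffice in the shallower control libraries. A site could also pass through 1 group alone, the group where it is high. Of these 24, 1 rose and 1 fell at an adjusted p under 0.05 (limma over 1059 sites), against a background of 7.08% of all tested sites called (3.68% higher and 3.4% lower). The median log2 difference was 0.13 for the 24 sites and 0.05 over all tested sites, and 5 of the 24 had an unadjusted p under 0.05, against 204 of the 1059.

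SCARNA4 is a small Cajal body RNA, a class that guides the modification of spliceosomal RNAs. Its site had 8.93 and 9.14 RPM with TGF-beta1 and 1.66 and 1.03 RPM in control (29 and 32 reads, against 3 and 3). The treated mean was 6.72-fold higher, with a log2 difference of 2.11 ± 0.51 (SE) and an adjusted p of 0.0112 (limma). The site passed the filter on low counts only through the TGF-beta1 libraries, where it is high. It was the only site of SCARNA4, so site and RNA level cannot be told apart. Without TGF-beta1 replicate 1 or 2, which leaves 1 treated library whose spread is taken from the other group, the call was lost while the log2 difference was 2.30 and 2.22. It was also lost with covering reads (2.13), without TMM scaling (1.63) and without the filter on low counts (2.19).

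ZNF367 encodes a zinc finger protein. Its in-register 3′ UTR site had 6.47 and 6.86 RPM with TGF-beta1 and 24.3 and 14.8 RPM in control (21 and 24 reads, against 44 and 43). The log2 difference was −1.38 ± 0.35 (adjusted p = 0.0128, limma), and the mean was 2.94-fold higher in control. The other 14 sites of the gene summed to 72 and 94 reads with TGF-beta1 and 52 and 67 reads in control, from libraries that are deeper with TGF-beta1. Over all its sites ZNF367 had a log2 difference of −0.64 (adjusted p = 0.252, limma). Against the other tested sites of ZNF367, the site's log2 difference was −1.16, with an unadjusted p of 0.0380 and an adjusted p of 0.893 (limma diffSplice). The call was lost without TGF-beta1 replicate 1 (−1.25), TGF-beta1 replicate 2 (−1.27) or control replicate 1 (−0.99), and with covering reads (−0.74). It was also lost without the filter on low counts (−1.29) and without the trend in the limma fit (−1.38).

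The 5 largest and 5 smallest differences among tested sites include 8 that did not pass. Below SCARNA4 came a MALAT1 site at 1.04, MTHFD2 at 1.03, TPM4 at 0.82 and TCEAL9 at 0.74. At the low end were PARD6B at −1.60, LNPEP at −1.46, a MALAT1 site at −0.70 and ZBTB20 at −0.67, with ZNF367 between LNPEP and MALAT1. Several of these rested on 1 library. The upper MALAT1 site was at −0.34 without control replicate 2 and at 2.39 without control replicate 1. Leaving out control replicate 1 put the lower one at −0.07, and leaving out TGF-beta1 replicate 2 put it at −0.16. ZBTB20 was at −0.35 and MTHFD2 at 0.66 without control replicate 1, and TPM4 at 0.18 and TCEAL9 at 0.49 without control replicate 2. PARD6B, a subunit of the PAR polarity complex of epithelial cells, had 0.616 and 0.571 RPM with TGF-beta1 and 3.87 and 3.79 RPM in control at its in-register 3′ UTR site, from 2 and 2 against 7 and 11 reads. The groups did not overlap, and the adjusted p was 0.120 (limma), while edgeR's quasi-likelihood test called it. LNPEP, a membrane aminopeptidase, had 1.23 and 0.857 RPM with TGF-beta1 and 4.42 and 4.82 RPM in control (adjusted p = 0.136, limma). Both sites passed the filter on low counts only through the control libraries, where they are high. Both have a match to bases 3 to 8 in register.

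Set against the other sites of their own genes, 14 miR-205 sites could be tested and 0 were called (limma diffSplice, background 0.0% of 512 sites). At an unadjusted p under 0.05, 1 of the 14 passed, the ZNF367 site, and 23 of the 512. For PARD6B the within-gene log2 difference was −0.06, far smaller than that of the site itself.

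**Figure D3:**
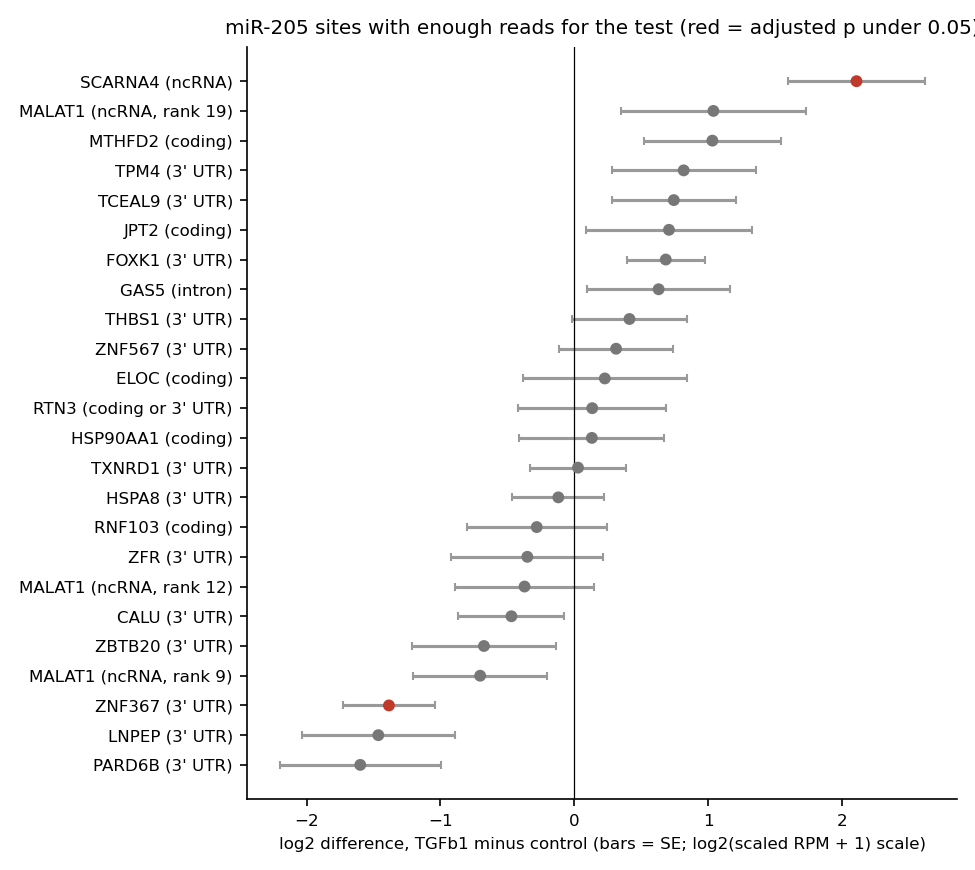
Log2 difference between TGF-beta1 and control libraries (points) with its standard error (bars) for the 24 miR-205 sites that passed the filter on low counts, on the log2(scaled RPM + 1) scale. SCARNA4 at 2.11 and ZNF367 at −1.38, in red, have an adjusted p under 0.05.

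Taken over all 478 sites, the part of the crosslinked reads held by miR-205 sites differed between the groups by less than the spread between libraries. The sites had 2.64 and 2.43% of all crosslinked reads with TGF-beta1 (1977 and 1753 reads) and 2.56 and 2.37% in control (947 and 1277 reads). The means were 2.53 ± 0.15% and 2.47 ± 0.13% (SD, n = 2 each), and the difference of 0.0652 percentage points was smaller than either SD (exact permutation test, two-sided, p = 0.667). With 2 libraries a group this exact test cannot go below p = 0.333. Its sign turned without TGF-beta1 replicate 1 (−0.0394) or without control replicate 2 (−0.0299).

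Reads were also set against those of other microRNAs in the same library, which cancels library size. Any effect of depth on which sites were listed is not cancelled and was not tested. Reads at miR-205 sites over those at miR-200b/miR-429 sites had log2 ratios of 0.82 and 0.67 with TGF-beta1 and 0.64 and 0.62 in control, a difference of 0.12 (exact permutation p = 0.333, two-sided). The difference was 0.31 with covering reads. Over sites with a crosslink in every library, a setting chosen after seeing the data, it was 0.05. Within coding sequence alone, a setting chosen after seeing the data, the log2 ratios were 2.55 and 2.53 with TGF-beta1 and 1.92 and 1.88 in control, a difference of 0.64 that also reaches only p = 0.333 (exact permutation test). Over miR-21 sites the log2 ratios were 0.18 and −0.04 with TGF-beta1 and 0.03 and −0.21 in control, a difference of 0.16 with overlapping groups (exact permutation p = 0.667, two-sided). Over the other sites of the genes that hold them they were −3.31 and −3.35 with TGF-beta1 and −3.28 and −3.31 in control, a difference of −0.03 (exact permutation p = 0.667, two-sided).

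Within the set, in-register sites and the rest differed between the groups with opposite sign. In-register sites held 0.968 and 0.987% of all crosslinked reads with TGF-beta1 and 1.18 and 1.16% in control, and the groups did not overlap. Sites at other positions held 1.67 and 1.44% with TGF-beta1 and 1.38 and 1.21% in control, also without overlap. Both comparisons reach the smallest p the design allows, 0.333 (exact permutation test, two-sided), and the split by position was chosen after the data were seen. Of the reads at miR-205 sites, 36.7 and 40.7% were in register with TGF-beta1 and 46.0 and 48.9% in control. For all other matched sites the same share was 45.6 and 47.8% with TGF-beta1 and 48.0 and 51.5% in control, which also did not overlap.

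More listed sites lacked control reads than lacked TGF-beta1 reads, over the whole table as at miR-205 sites. Of all 16230 sites, 1.19% had no read in either TGF-beta1 library and 11.5% none in either control library. Of the 346 sites at other positions, 2 had no read in either TGF-beta1 library and 54 (15.6%) none in either control library, while among the 132 in-register sites these numbers were 1 and 2. Restricted to sites with a read in every library, the 94 in-register sites held 1.22 and 1.17% of the reads of all such sites with TGF-beta1 and 1.34 and 1.30% in control. The 90 sites at other positions held 1.18 and 1.10% with TGF-beta1 and 1.04 and 0.947% in control. Neither comparison had overlap between the groups, though the differences were smaller.

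By part of the RNA, miR-205 sites in 3′ UTRs held 1.09 and 1.11% of crosslinked reads with TGF-beta1 and 1.14 and 1.30% in control, and those in coding sequence 1.04 and 0.951% with TGF-beta1 and 0.898 and 0.734% in control (exact permutation p = 0.333 for each, two-sided). All 3′ UTR sites of the table held 55.8 and 60.4% with TGF-beta1 and 59.0 and 66.5% in control, and all coding sites 19.1 and 19.3% with TGF-beta1 and 17.7 and 16.5% in control. For coding sequence the TGF-beta1 pair was the higher one both at miR-205 sites and at all sites. Restricted to sites with a read in every library, coding miR-205 sites held 0.718 and 0.714% of the reads of all such sites with TGF-beta1 and 0.720 and 0.604% in control, which overlapped.

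**Figure D4:**
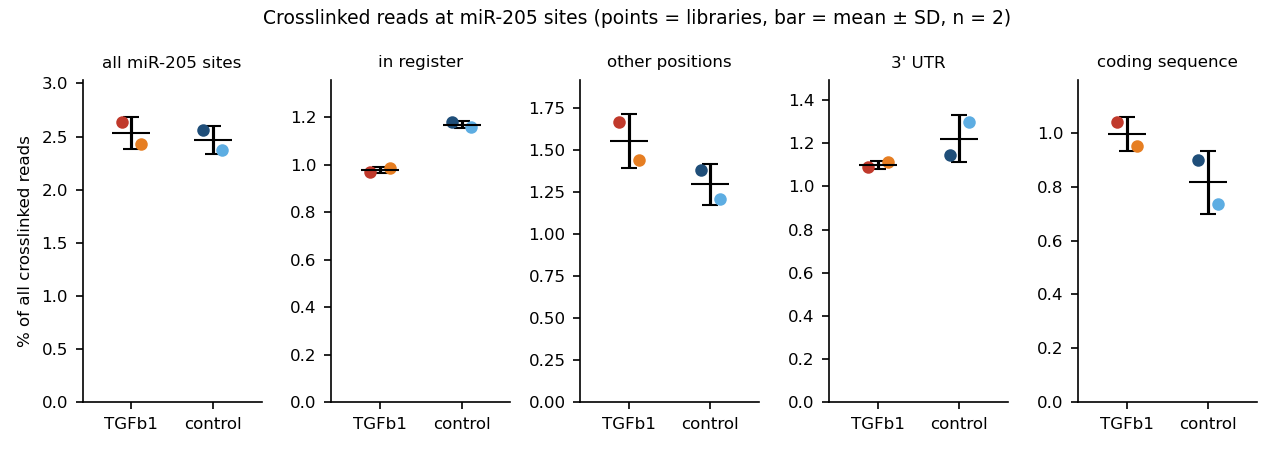
Percent of all crosslinked reads in each library (points) at all miR-205 sites, at those in register, at other positions, in 3′ UTRs and in coding sequence, with the group mean and SD (n = 2). The all-site shares overlap between TGF-beta1 and control, whereas the in-register shares (0.968 and 0.987%, against 1.18 and 1.16%) do not.

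The share of covering reads that carried the crosslink was lower with TGF-beta1. At in-register miR-205 sites it was 32.5 and 34.9% with TGF-beta1 and 45.2 and 47.1% in control, and at other positions 11.05 and 13.6% with TGF-beta1 and 15.6 and 18.5% in control. Over all sites of the table it was 17.99 and 21.2% with TGF-beta1 and 25.8 and 28.3% in control. The same direction was thus seen over the whole table, and its part in the shares above was not tested. A library's covering reads are listed only at sites where that library has a crosslink. In every library in-register sites were crosslinked in a larger part of their covering reads than sites at other positions.

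**Figure D5:**
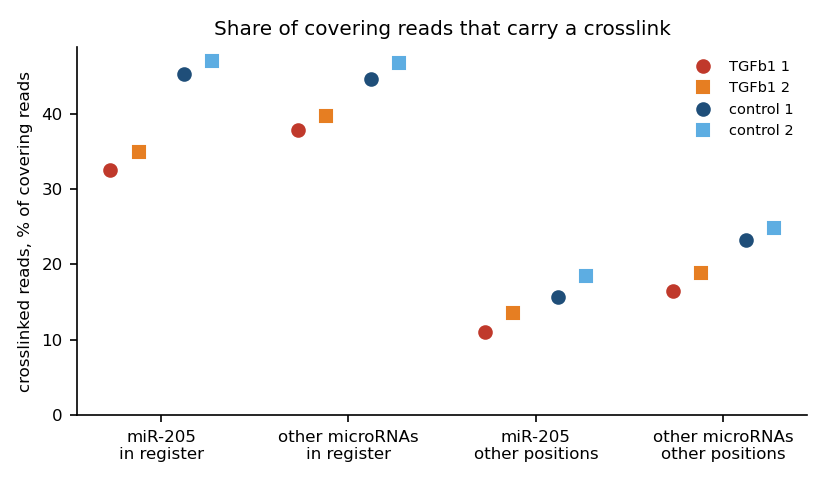
Crosslinked reads as a percent of the reads covering the site, in each library, for miR-205 and other microRNA sites in register and at other positions. Both TGF-beta1 libraries lie below both control libraries in all 4 columns, and the in-register columns (32.5 to 47.1% for miR-205) lie above the others.

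Sums over all sites of a gene asked whether the RNAs that hold miR-205 sites had more or fewer crosslinked reads. No RNA level enters these sums, so Argonaute binding and RNA level cannot be told apart in them. Of 386 genes, 228 were tested, and 7 were higher and 5 lower with TGF-beta1 at an adjusted p under 0.05 (limma over 1266 genes), against a background of 3.08% of all tested genes (1.58% higher and 1.5% lower). Genes with a miR-205 site are larger targets, with a median of 10 sites and 126.5 reads, against 4 sites and 74 reads for other tested genes, so a share above the background is not called particular to miR-205 here. The median log2 difference was 0.14 for the 228 genes and 0.02 over all tested genes. No call remained without control replicate 1 or without control replicate 2, fits that leave 1 control library. The differences stayed of similar size for INHBA (1.94 and 2.31) and UGCG (−1.91 and −1.73). In all 11 called genes other than SCARNA4, most of these reads lay at sites not annotated to miR-205.

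The higher genes included matrix and activin genes. INHBA, the activin A subunit, had 174 and 200 RPM with TGF-beta1 and 36.5 and 49.9 RPM in control, a mean 4.32-fold higher (adjusted p = 0.000449, limma), but its single miR-205 site had 6 and 2 reads, against 0 and 0, of 1513 reads in the gene. FN1, fibronectin, had 309 and 287 RPM with TGF-beta1 and 93.5 and 80.2 RPM in control (adjusted p = 0.000449, limma). Its 4 miR-205 sites are all in coding sequence and together had 18 and 7 reads with TGF-beta1 and 1 and 1 in control. COL4A1, a basement membrane collagen, AMIGO2, a cell adhesion protein, HSPA5, the chaperone BiP, ACTG1, cytoplasmic gamma-actin, and SCARNA4 made up the rest, with log2 differences of 0.93 to 2.02 and adjusted p of 0.0124 to 0.0433 (limma). Apart from SCARNA4, the miR-205 sites of these higher genes had at most 10 reads in any library and lay out of register.

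The lower genes were UGCG, glucosylceramide synthase, PARD6B, PEG10, a retrotransposon-derived imprinted gene, CLDN11, a tight junction claudin, and KDELC1. UGCG had 51.4 and 51.8 RPM with TGF-beta1 and 173 and 205.5 RPM in control (log2 difference −1.85 ± 0.20, adjusted p = 0.000449, limma), and its 3 miR-205 sites had 2 and 10 reads, against 8 and 8. PARD6B had 20.99 and 21.6 RPM with TGF-beta1 and 71.3 and 70.5 RPM in control (−1.69 ± 0.22, adjusted p = 0.0023, limma), and its 2 miR-205 sites in the 3′ UTR had 6 and 3 reads, against 10 and 21. Relative to depth, reads at the PARD6B sites ran the same way as the gene. The single miR-205 sites of PEG10 and CLDN11 are in-register 3′ UTR sites with full seed pairing, but had 4 and 4 reads, against 2 and 4, and 4 and 2 reads, against 5 and 3.

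Of 43 genes reported elsewhere as miR-205 targets, 25 held an Argonaute site and 6 a site annotated to miR-205: RAP2B, RTN4, CLDN11, CDK14, NOTCH2 and MED1. At a site not annotated to miR-205, 3 of the 43 genes carried it as a secondary seed, and these may include some of the 6. ZEB1 and ZEB2 held Argonaute sites, none of them annotated to miR-205. RAP2B, CLDN11, CDK14, a cyclin-dependent kinase, and MED1, a Mediator subunit, had full seed pairing in register in the 3′ UTR. The CDK14 site had 8 and 4 reads with TGF-beta1 and 2 and 2 in control, and the MED1 site 0 and 3 reads, against 1 and 1. The pair of NOTCH2 sites lay 24 bases apart in the 3′ UTR with 4 and 2 reads, against 1 and 1, and 1 and 1 reads, against 0 and 1. The RTN4 site, in coding sequence, had 6 and 6 reads with TGF-beta1 and 7 and 0 in control. Of the 9 genes tested, 0 were higher and 1 was lower, CLDN11, with 20.99 and 15.9 RPM with TGF-beta1 and 39.3 and 47.2 RPM in control (log2 difference −1.19 ± 0.25, adjusted p = 0.0325, limma). The median over the 9 was 0.14. None of the libraries could be left out without losing the CLDN11 call.

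Other lists held few miR-205 sites. Among 23 genes of the epithelial to mesenchymal axis, 12 had a site, 6 were tested, 1 was higher (FN1) and 2 lower (PARD6B and the integrin ITGB8), against 1.58% higher and 1.5% lower over all tested genes, with a median log2 difference of −1.02. Of these genes 3 carried miR-205 sites: FN1, PARD6B and QKI, an RNA-binding protein with an in-register 3′ UTR site of 6 and 1 reads, against 2 and 0. Of 21 PI3K and AKT genes, 12 had a site, 4 were tested and 0 called (limma; median log2 difference −0.10), and 1 carried a miR-205 site. Of 16 Src and adhesion genes, 10 had a site, 6 were tested and 0 called (limma; median 0.04). There the receptor-like gene DCBLD2 had 5 miR-205 sites, 4 of them in introns, and ABL2, a kinase, and VCL, vinculin, 1 each in coding sequence. Of 25 TGF-beta pathway genes, INHBA, TGIF1, ACVR2A and SMAD2 had 1 miR-205 site each. The activin receptor gene ACVR2A had its site in register in the 3′ UTR, with 2 and 1 reads, against 1 and 2.

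Repeated miR-205 sites were uncommon: 333 genes held 1, 39 held 2, and 14 held 3 or more. MALAT1 had 9 among its 165 sites, with 238 of 3272 reads (7.27%), and none in register. DCBLD2 had 5, and HSP90AA1, the cadherin gene FAT1 and FN1 4 each. The 8 with 3 sites were NCL, RPL37A, TMPO, ACTB, UGCG, HNRNPC, NRIP1 and DDX39B, whose sites carry a name joined with an overlapping gene. In RPL37A, a ribosomal protein gene, miR-205 sites held 34 of 69 reads (49.3%), the highest share among these 14 genes. RPL37A, ACTB, ACTG1, HSPA8 and HSP90AA1 have near-identical copies or pseudogenes in the genome, and how reads that map to several places were counted is not given in the sources used here, so their values are uncertain.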

How the data were processed

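The deposited table gives, per crosslink site and library, the covering reads and the crosslinked reads as RPM, scaled by the authors to the library's total, per the file headers. Its microRNA score, also computed by the authors, gives the reads of the microRNA relative to its library, rounded to whole numbers, and a second deposited list gives the same 16230 positions with a score of 1. Per the submitters' processing notes, hg38, STAR 2.7.1a, bcl2fastq 2.20.0.422 and bedtools were used, and GENCODE release 27 per the file headers. The program that called crosslinks is not given in the sources used here. Another 4 columns of per-sample values that name RNA-seq samples were not used.

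Every RPM value was a whole multiple of the value of 1 read in its library (100% within 0.1 reads), which gave reads and depths. The labels name no molecular identifiers, and reads are therefore not counts of separate molecules; their number limits the precision.

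Sites and genes (sums over sites of a name) were kept by filterByExpr with a minimum count of 10, and tested with limma 3.58.1 (trend, two-sided) on log2(TMM-scaled RPM + 1), a scale that understates the change of low values, with Benjamini-Hochberg adjustment over all features tested. The threshold was 0.05. TMM factors came from edgeR 4.0.16, separately for the kept sites and the kept genes. Sites were set against their own gene with limma's diffSplice, and shares by exact permutation of libraries (scipy 1.17.1). Alternatives were edgeR's quasi-likelihood test and DESeq2 1.42.0 on recovered reads, coverage, a pseudocount of 0.5, no trend, TMM or filter, 3′ UTR sites only, match subsets, a replicate block and leaving out each library. Scripts were tested on simulated data.

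Described in the text are called sites, the 20 most read, those in 7 gene lists, the 5 largest and 5 smallest differences, genes with 3 or more miR-205 sites and called genes. Members and lists were chosen with earlier results of these data known. A few of these items are not reported here.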

Additional observations from a re-analysis of the deposited data

How the results depend on the processing

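Differences are TGF-beta1 minus control. The share of crosslinked reads at miR-205 sites turned from 0.0652 percentage points to −0.0499 within 3′ UTR sites and to −0.191 in register, and ran from −0.0394 to 0.170 with 1 library left out. The log2 ratio to miR-200b/miR-429 sites (0.12) turned to −0.0472 in 3′ UTRs and −0.196 in register and was 0.310 with coverage and 0.640 within coding sequence, and that to miR-21 sites (0.16) to −0.0871 in register. The ratio to other sites of the same genes (−0.03) turned to 0.0535 with coverage, 0.0835 in 3′ UTRs, 0.0521 in register and 0.262 over sites with a crosslink in every library. The in-register, coding and every-library settings were chosen after seeing the data. The causes were not tested.

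With 3′ UTR sites only, SCARNA4 is not in the fit, and ZNF367 stayed called (log2 difference −1.32). The 2 called sites became 1 without TMM or without the trend, and 0 with coverage or without the filter. With 1 library left out they numbered 0 to 2. edgeR called 3 and DESeq2 2. The 12 called genes became 1 without the filter, 4 without TMM and 0 without the trend, and 0 to 8 with 1 library left out. edgeR called 14 (9 higher, 5 lower) and DESeq2 9. Without TMM the median over all tested features moved to −0.51 for sites and −0.45 for genes, and calls became 0 higher and 1 lower for sites and 0 higher and 4 lower for genes. With the replicate block, 19 genes were called (12 higher, 7 lower) and 2 sites. Same-numbered libraries deviated together only weakly (correlation 0.117 over sites, 0.131 over genes, 2 pairs), and the shared number was not used as a pairing. With 1 library of each group per number the block cannot change the share difference (0.0652). Counts of 0 for site use within genes stayed 0 in the settings run. The fit without the trend was not run there, because diffSplice models no trend. Of 449 alternatives for single sites and genes, 331 kept sign and side of the threshold, 89 lost the call with the same sign, 2 gained one, and 27 turned the sign of an uncalled difference. Of the 478 sites, 24 could be tested.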
